A study of Homo sapiens with 6 samples.

Results

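The mitochondrially encoded genes are the 37 genes of the human mitochondrial chromosome, and they were taken as every row of the gene count table whose chromosome was MT, among 58735 rows in all. They comprise 13 genes for mRNAs, 2 for rRNAs and 22 for tRNAs. The table annotates 28 of them on the plus strand and 9 on the minus strand. The data were RNA-seq counts from 6 libraries of a human colorectal cancer cell line, 3 labelled CNOT7 knockdown (sh1 to sh3) and 3 labelled control (Nc1 to Nc3), all without treatment. The labels name the line SW480, whereas the study's text names HCT116 for its RNA sequencing, so the cells are called colorectal cancer cells here. The labels do not say which shRNA a library carries, nor whether the 3 libraries of a group come from separate cultures, so p-values measure only the spread between these libraries, which may be technical. The comparison asks how the RNA of these cells differs when CNOT7 is depleted.

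Both strands of the mitochondrial genome are transcribed into long RNAs that hold several genes. The tRNAs lie between most of the rRNAs and mRNAs, and cutting them out at both ends frees the neighbouring RNAs, after which most of the mRNAs receive a poly(A) tail inside the organelle. CNOT7 is a catalytic subunit of CCR4-NOT, the complex that shortens the poly(A) tails of mRNAs in the cytoplasm.

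Counts were summed per gene, scaled to a common library size with TMM factors (CPM) and tested over 17574 genes with the quasi-likelihood test of edgeR, adjusted after Benjamini and Hochberg. A gene was called higher or lower in the knockdown when its adjusted p was under 0.05, without a minimum fold change. Library totals ran from 23788451 to 25982493 counts in the controls and from 27523812 to 29104872 in the knockdown. CNOT7 itself (ENSG00000198791) measured 169.1, 191.1 and 175.8 CPM in the controls and 43.4, 47.2 and 38.6 CPM in the knockdown, a log2 fold change of -2.05 (SE 0.0734, adjusted p = 2.64e-12). Of 10 epithelial markers, 7 were tested. VIL1 (0.72) and CDH1 (0.51) were called higher on the log2 fold scale, KRT8 (-0.15) and KRT19 (-0.18) lower, and EPCAM, KRT18 and CDX2 were not called, while CDX1, CEACAM5 and LGALS4 were at or near 0. The 12 markers of other cell types summed to 14.9 to 17.0 CPM in the controls and 16.6 to 19.8 CPM in the knockdown, with DCN at 0 in every library.

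Of the 9 called genes, 7 lie next to each other on the plus strand from MT-RNR1 to MT-TM, with no gap of more than 2 bases and with only the minus-strand MT-TQ, which was not tested, among them. MT-TI and MT-TM in this run passed the filter on low counts only through the control libraries. On GRCh38, MT-RNR1 lies at chrM:648-1601, MT-TV at chrM:1602-1670, MT-RNR2 at chrM:1671-3229, MT-TL1 at chrM:3230-3304, MT-ND1 at chrM:3307-4262, MT-TI at chrM:4263-4331 and MT-TM at chrM:4402-4469. MT-CO3 lies farther along the plus strand at chrM:9207-9990. MT-TP is on the minus strand at chrM:15956-16023. The 5 called tRNA genes are shown 5′ to 3′ as in the GENCODE release 29 transcripts, with the anticodon in capitals. They are short genes of 68 to 75 bases.

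MT-TV: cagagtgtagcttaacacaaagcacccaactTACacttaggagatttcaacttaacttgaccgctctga
MT-TL1: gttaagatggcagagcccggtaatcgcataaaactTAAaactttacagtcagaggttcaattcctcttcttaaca
MT-TI: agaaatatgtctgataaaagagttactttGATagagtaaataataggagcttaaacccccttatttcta
MT-TM: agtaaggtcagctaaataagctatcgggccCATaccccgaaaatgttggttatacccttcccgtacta
MT-TP: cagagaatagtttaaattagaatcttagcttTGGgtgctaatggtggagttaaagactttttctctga

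The 3′ ends of the 2 called rRNAs and the 2 called mRNAs each meet a tRNA gene with 0 bases between them, and the last 40 bases of each are shown for that reason. Capitals mark the bases after the last whole codon of MT-ND1 and MT-CO3. These bases are the start of a stop codon that the poly(A) tail completes, and the rRNAs have no reading frame and no capitals.

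MT-RNR1 (followed by MT-TV): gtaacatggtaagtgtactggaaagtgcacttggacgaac
MT-RNR2 (followed by MT-TL1): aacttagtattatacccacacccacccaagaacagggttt
MT-ND1 (followed by MT-TI): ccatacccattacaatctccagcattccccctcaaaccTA
MT-CO3 (followed by MT-TG): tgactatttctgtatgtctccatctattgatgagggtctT

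Of the 37 genes, 29 passed the filter on low counts, and 3 of these were called higher and 6 lower after CNOT7 knockdown. Over all tested genes, 13.3% were called higher, 11.9% lower and 25.2% in either direction, so the members' 9 calls are to be read against that background. The 3 higher genes were MT-RNR1, MT-RNR2 and MT-TP. The 6 lower genes were MT-ND1, MT-CO3, MT-TV, MT-TL1, MT-TI and MT-TM. The median log2 fold change of the tested members was -0.09 and that of all tested genes 0.00, and 21 of the 29 members were below 0. The knockdown and control libraries did not overlap in CPM for 10 of the 29, beside 38.8% of all tested genes. The 8 genes that did not pass were all tRNA genes, MT-TF, MT-TQ, MT-TW, MT-TA, MT-TS1, MT-TD, MT-TK and MT-TS2, with 1 to 44 counts over the 6 libraries.

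**Figure D1:**
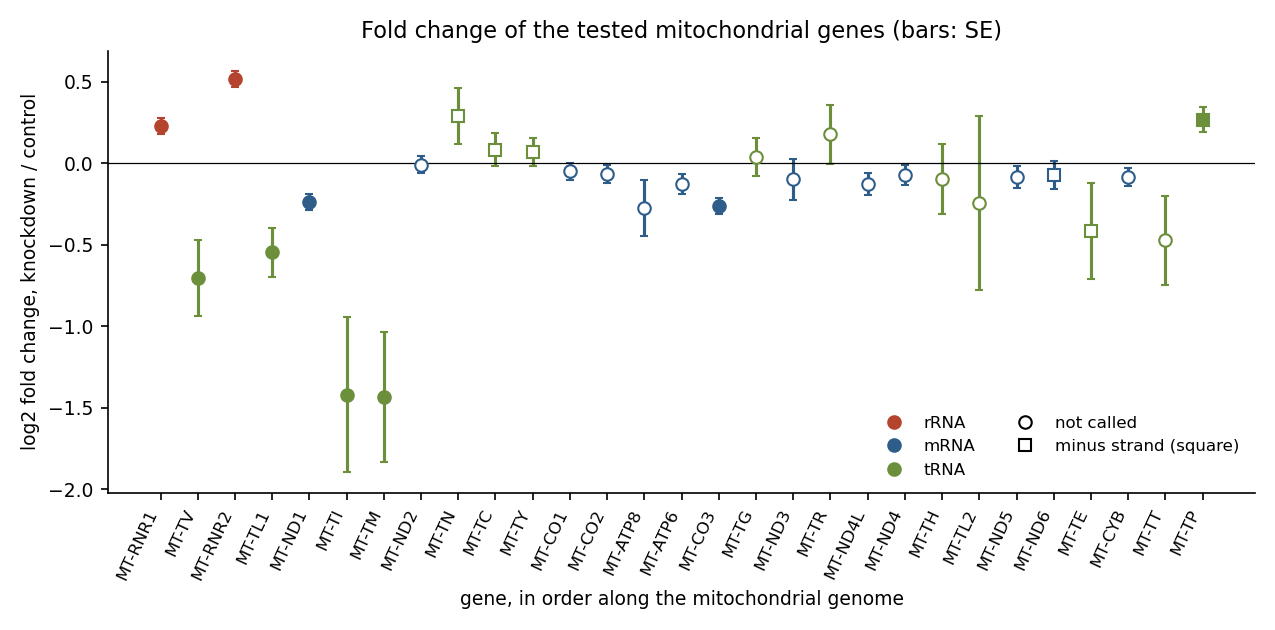
Each point is the log2 fold change (knockdown over control, y axis) of a tested mitochondrial gene, in order along the genome (x axis), with its standard error as a bar. Filled points are called genes and squares are minus-strand genes. The 2 rRNAs lie above 0, the 13 mRNAs all lie below 0 with 2 of them called, and the 4 tRNAs called lower all lie between MT-RNR1 and MT-ND2.

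Both rRNAs rose after CNOT7 knockdown, by 1.43 times for the 16S rRNA and 1.17 times for the 12S rRNA. MT-RNR2 encodes the 16S rRNA of the large subunit of the mitochondrial ribosome. It measured 9183, 9920 and 9788 CPM in the controls and 13510, 14770 and 13070 CPM in the knockdown. All 3 knockdown libraries lay above all 3 controls. The log2 fold change was 0.52 (SE 0.0485, adjusted p = 6.34e-07 in edgeR). MT-RNR1 encodes the 12S rRNA of the small subunit. It measured 823.2, 796.4 and 849.2 CPM in the controls and 929.5, 972.9 and 990.1 CPM in the knockdown. These groups also did not overlap, and the log2 fold change was 0.23 (SE 0.0479, adjusted p = 0.00197). The counts of MT-RNR2 per count of MT-RNR1 were 11.2, 12.5 and 11.5 in the controls and 14.5, 15.2 and 13.2 in the knockdown. Every knockdown library thus held a higher ratio of 16S to 12S counts than any control. Both rRNAs remained called in each of 13 alternative analyses, at 0.46 to 0.61 for MT-RNR2 and 0.20 to 0.31 for MT-RNR1.

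**Figure D2:**
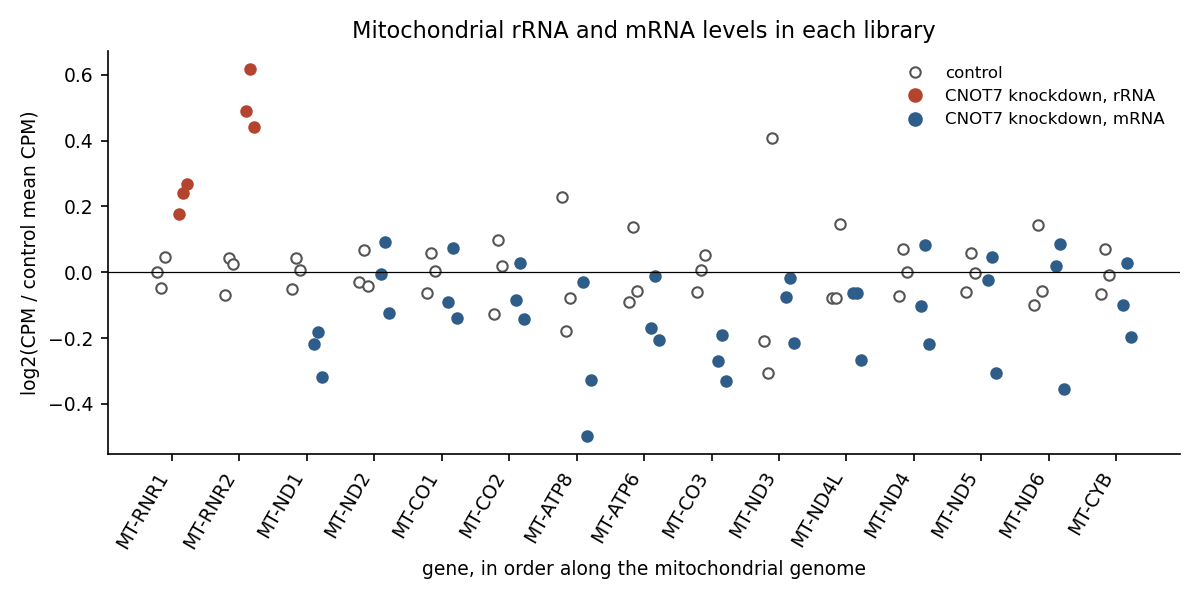
Each point is a library, plotted as log2 of its CPM over the mean CPM of the controls (y axis) for the 2 rRNA and 13 mRNA genes in genome order (x axis). Open points are the 3 controls and filled points the 3 knockdown libraries. The groups separate for MT-RNR1, MT-RNR2, MT-ND1 and MT-CO3 and overlap for the other 11 mRNAs.

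RNAs that carry no long poly(A) tail can shift with the way RNA is selected, and the selection step was not stated in the sources used here. A list of 28 nuclear RNAs that lack or mostly lack such a tail was therefore read beside the rRNAs. Of these, 12 were tested, and both edgeR and DESeq2 called 0 higher and 8 lower. The 8 that edgeR called lower were all histone genes, whose RNA also follows DNA replication. The list summed to 169.1, 171.4 and 167.9 CPM in the controls and 79.0, 83.8 and 91.3 CPM in the knockdown. RN7SK, RN7SL1, RMRP and RPPH1 were at 0, and RN7SL2 measured 2.83 CPM in the controls and 2.46 CPM in the knockdown. The part of RNA selection in the rRNA difference was not tested. This list could not test it, as its called genes were all histone genes.

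Among the mRNAs, MT-ND1 and MT-CO3 fell and the other 11 were not called, with 2 of 13 at an unadjusted p under 0.05, and DESeq2 likewise called 0 higher and 2 lower. The 2 are 15.4% of the mRNAs, beside 11.9% of all tested genes called lower and 25.2% called in either direction. MT-ND1, a membrane subunit of complex I, measured 2257, 2405 and 2345 CPM in the controls and 2010, 2059 and 1875 CPM in the knockdown. The groups did not overlap, and the log2 fold change was -0.24 (SE 0.0479, adjusted p = 0.00145). MT-CO3, a core subunit of complex IV (cytochrome c oxidase), measured 5291, 5539 and 5715 CPM in the controls and 4570, 4828 and 4390 CPM in the knockdown. All knockdown libraries lay below all controls, at a log2 fold change of -0.26 (SE 0.0468, adjusted p = 4.93e-04). Both mRNAs remained called in all 13 alternatives, at -0.27 to -0.15 for MT-ND1 and -0.30 to -0.18 for MT-CO3. With MT-RNR2 higher and its neighbour MT-ND1 lower, the ratio of their counts was 4.07, 4.12 and 4.17 in the controls and 6.72, 7.17 and 6.97 in the knockdown. The ratio of MT-ND1 to MT-ND2, the next mRNA along the same strand, was 0.751, 0.749 and 0.788 in the controls and 0.658, 0.630 and 0.667 in the knockdown. Neither ratio overlapped between the groups, which for MT-RNR2 to MT-ND1 follows from the opposite separation of both genes. MT-CO3 shares 1 base with MT-ATP6, which lies before it, and the MT-CO3 to MT-ATP6 ratio was 1.68, 1.499 and 1.77 in the controls and 1.53, 1.45 and 1.51 in the knockdown, where the groups overlapped.

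All 13 mRNAs had a log2 fold change below 0, from -0.27 to -0.01 with a median of -0.09. Without the 2 that fell, complex I held MT-ND2 at -0.01 (SE 0.0535), MT-ND3 at -0.10 (SE 0.123), MT-ND4L at -0.13 (SE 0.0662), MT-ND4 at -0.07 (SE 0.0607), MT-ND5 at -0.09 (SE 0.0679) and MT-ND6 at -0.07 (SE 0.0869). Complex III has a single mitochondrial mRNA, MT-CYB for cytochrome b, at -0.09 (SE 0.0544). In complex IV, MT-CO1 was at -0.05 (SE 0.0513) and MT-CO2 at -0.06 (SE 0.0554). Complex V, the ATP synthase, held MT-ATP6 at -0.13 (SE 0.0607) and MT-ATP8 at -0.27 (SE 0.171). Their adjusted p-values in the quasi-likelihood test of edgeR ran from 0.142 for MT-ATP6 to 0.922 for MT-ND2. These small differences also depend on the scaling, the model and the libraries used. With the replicate number as a block, MT-ATP6, MT-ND4L, MT-ND4, MT-ND5 and MT-CYB were called lower. Without knockdown 2, MT-CO1, MT-ATP6, MT-ND4 and MT-CYB were called lower, and with no filter MT-ATP6 and MT-ND4L were. With a trend of fold change with abundance removed, MT-ND2, MT-CO1, MT-CO2, MT-ND4 and MT-ND6 lay above 0, at 0.07, 0.04, 0.03, 0.01 and 0.0030 on the log2 scale. MT-ND3 rested on control library 3, which held 607.5 CPM beside 395.7 and 369.9 CPM in the other controls and 434.4, 452.6 and 394.4 CPM in the knockdown.

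The shares of the complexes within the mitochondrial mRNA counts were close in both groups. Complex I subunits took 34.8% to 35.2% of these counts in the controls and 34.1% to 35.7% in the knockdown. Complex IV subunits took 51.0% to 51.6% and 50.8% to 52.1%. MT-CYB took 7.79% to 7.92% and 7.89% to 7.92%, and complex V 5.65% to 6.22% and 5.66% to 5.88%. No complex separated the groups.

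The mitochondrial genes together took 6.36%, 6.88% and 6.69% of all counts in the controls and 6.88%, 7.40% and 6.54% in the knockdown, and the groups overlapped. In bulk RNA, the number of mitochondrial genomes and the RNA per genome cannot be told apart. The mRNAs alone took 5.35% to 5.82% of all counts in the controls and 5.08% to 5.80% in the knockdown, also overlapping. The rRNAs took 0.990%, 1.05% and 1.04% in the controls and 1.47%, 1.58% and 1.44% in the knockdown, which did not overlap. Within the mitochondrial counts, the rRNA share was 15.5% ± 0.213 (SD, n = 3) in the controls and 21.6% ± 0.378 (SD, n = 3) in the knockdown, and the mRNA share 84.3% ± 0.247 and 78.1% ± 0.397. The shares add up to the whole, so a larger rRNA share makes each other share smaller. The rRNA to plus-strand mRNA ratio was 0.187, 0.183 and 0.188 in the controls and 0.277, 0.276 and 0.287 in the knockdown. The ratio in the knockdown was thus 1.505 times by count and 1.503 times by count per kilobase that of the controls.

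The 4 tRNAs called lower were the plus-strand tRNAs between MT-RNR1 and MT-ND2, and each had few counts. MT-TL1, the tRNA for leucine that follows MT-RNR2, held 227, 278 and 288 counts in the controls and 239, 222 and 166 in the knockdown. Scaled to the library size, these are 8.83, 11.9 and 11.5 CPM and 8.48, 8.04 and 5.57 CPM, so the groups did not overlap, at a log2 fold change of -0.55 (SE 0.151, adjusted p = 0.0128 by edgeR's quasi-likelihood test). MT-TV, the tRNA for valine between the rRNAs, held 86, 58 and 57 counts in the controls and 60, 45 and 37 in the knockdown. In CPM the groups separated, at a log2 fold change of -0.70 (SE 0.231, adjusted p = 0.0336 by the same test). MT-TI, for isoleucine, held 20, 13 and 14 counts in the controls and 12, 5 and 3 in the knockdown, and MT-TM, for methionine, 20, 16 and 16 and 9, 5 and 8. Every knockdown library lay below every control for both, at log2 fold changes of -1.42 (SE 0.478) and -1.43 (SE 0.400), with adjusted p-values of 0.0374 and 0.0139 from the same fit. MT-TI and MT-TM passed the filter on low counts only through the controls, where they were higher, so the direction of their calls was not free. With a minimum of 10 counts in every library, neither was tested and 4 members were called lower.

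These 4 calls hung on single libraries. The call of MT-TV was lost without control 1, knockdown 2 or knockdown 3, at a highest adjusted p of 0.176 in the same test. The call of MT-TL1 was lost without control 3 or knockdown 3 (highest adjusted p = 0.0535 in that test). MT-TM was not called without control 1 or knockdown 2 (highest adjusted p = 0.0597 in that test). MT-TI was called in 7 of the 12 alternatives that tested it and was lost with DESeq2, without control 1 or 3, and without knockdown 2 or 3. A tRNA of this length is shorter than the usual fragment of an mRNA library, so counts on these genes cannot tell a mature tRNA from a stretch of a longer RNA.

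Of the 14 tested tRNA genes, 35.7% were called, beside 25.2% of all tested genes. MT-TP, the tRNA for proline, was the 1 tRNA called higher. It held 36.6, 42.3 and 41.5 CPM in the controls and 45.6, 52.9 and 46.2 CPM in the knockdown. The groups did not overlap, and the log2 fold change was 0.27 (SE 0.0782, adjusted p = 0.0185 by edgeR's quasi-likelihood test). The call was lost without control 1 or knockdown 2, at adjusted p-values up to 0.104 in the same test. MT-TN, for asparagine, measured 25.1, 21.97 and 44.9 CPM in the controls and 35.1, 37.2 and 40.1 CPM in the knockdown. Control 3 lay above every other library, as it did for MT-ND3, and the log2 fold change of 0.29 (SE 0.170) was not called but reached 0.67 and was called without that library. The other 8 tested tRNAs were not called, from -0.47 (SE 0.272) for MT-TT, for threonine, to 0.18 (SE 0.182) for MT-TR, for arginine. MT-TC was at 0.08, MT-TY at 0.07, MT-TG at 0.04, MT-TH at -0.10, MT-TL2 at -0.25 and MT-TE at -0.42 on the same log2 fold scale.

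By strand, edgeR called 2 plus-strand genes higher and 6 lower of 23 tested. On the minus strand, 1 gene was called higher and 0 lower of 6 tested in edgeR. These are 34.8% and 16.7% called, beside 25.2% of all tested genes. DESeq2 gave the same counts on the minus strand and 5 lower over both strands, without MT-TI. Of the 6 minus-strand genes, 1 had an unadjusted p under 0.05, and whether the strands differ was not tested. The kit named in the labels does not mark the strand of an RNA, so reads from opposite strands at a gene cannot be told apart and the strands compare positions. All 4 of MT-TN, MT-TC, MT-TY and MT-TP, the tRNA genes with the most counts, are on the minus strand. MT-ND6, the single minus-strand mRNA, held 0.213 to 0.235 counts per count of MT-ND5, its neighbour on the other strand, in the controls and 0.214 to 0.228 in the knockdown. The ratio of counts on minus-strand genes to counts on plus-strand mRNA genes was 0.0158 ± 0.000337 (SD, n = 3) in the controls. It was 0.0165 ± 0.00120 (SD, n = 3) in the knockdown, and the groups overlapped. Per kilobase, where the short tRNAs weigh more, the ratio was 0.0646, 0.0604 and 0.0680 in the controls and 0.0758, 0.0693 and 0.0739 in the knockdown, which did not overlap.

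**Figure D3:**
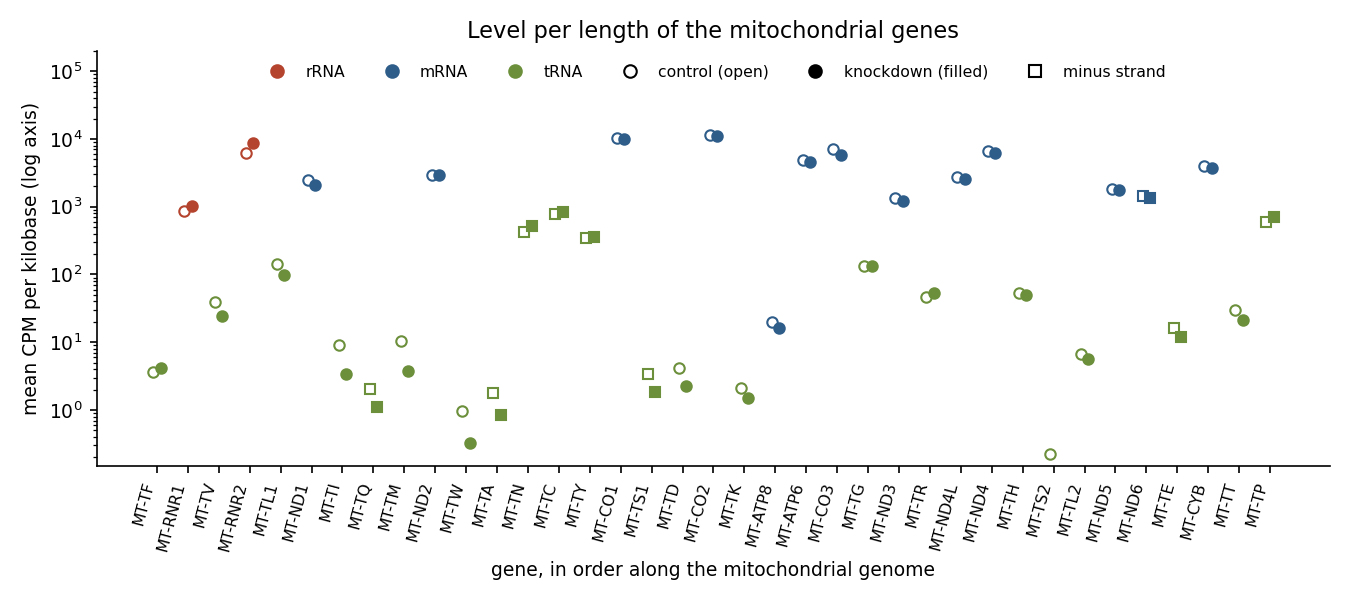
Mean CPM per kilobase of gene length (log y axis) of the mitochondrial genes in genome order (x axis), open for control and filled for knockdown, with squares for minus-strand genes. MT-CO2 and MT-CO1 are highest, most tRNA genes lie well below the mRNAs, and the mean of MT-TS2 in the knockdown is 0 and is not drawn.

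Per kilobase of gene length, the level in the controls was highest for MT-CO2 (11510 ± 890.5 CPM per kilobase, SD, n = 3) and MT-CO1 (10240 ± 438.1), which differed by about their spread. MT-CO3 followed at 7034 ± 272.0, MT-ND4 at 6631 ± 328.1 and MT-RNR2 at 6177 ± 251.9. In the knockdown, MT-RNR2 at 8842 ± 563.8 CPM per kilobase stood above MT-ND4 at 6298 ± 671.3 and MT-CO3 at 5863 ± 280.6. MT-RNR1 was at 862.6 ± 27.7 in the controls, under every mRNA except MT-ATP8. The RNA selection step was not stated, so these counts need not rank rRNAs and mRNAs by their amounts in the cell. MT-ATP8 was at 19.8 ± 2.98, against 4935 ± 429.8 for MT-ATP6, with which it shares 46 bases or 22.2% of its length. How reads in shared bases were counted was not stated in the sources used here. The gap between these counts need not be a difference in RNA level.

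Many nuclear pseudogenes copy parts of the mitochondrial genome, and reads can be split between a gene and its copy. The table held 407 such copies, of which 324 had 0 counts and 8 were tested. Those with the highest mean CPM were MTATP6P1, MTND2P28, MTCO1P12, MTRNR2L8 and MTND4P12, and none of these 5 was called. MTATP6P1, 98.5% identical to MT-ATP6, measured 140.8, 165.3 and 271.1 CPM in the controls and 161.8, 167.0 and 118.7 CPM in the knockdown, again with control 3 highest. MTND2P28, 98.4% identical to MT-ND2, measured 93.5, 97.1 and 145.8 CPM and 117.4, 126.5 and 77.2 CPM. The other 3 measured 23.2, 0.612 and 0.576 CPM on average in the controls. The copies as a group took 0.0259% to 0.0440% of all counts in the controls and 0.0226% to 0.0324% in the knockdown. The calls among copies, named here after their values were seen, were MTND5P1 (1.80) and MTCYBP21 (2.08) higher and MTCO2P12 (-1.53) lower on the log2 fold scale, each with 1 to 29 counts a library. They are 37.5% of the tested copies, beside 25.2% of all tested genes. Genes with so few counts can pass the filter through the higher group alone, which then sets the direction of a call. With a minimum of 10 counts in every library, 0 copies were called in either direction.

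Annotated copies share sequence with the called genes to different degrees. No 50-base window of MT-RNR1 occurs in a copy, nor does any 100-base window of MT-RNR2, of whose 50-base windows 14.04% do. For MT-ND1 the share of 50-base windows found in a copy was 22.05%, for MT-CO3 30.6%, and for MT-CO1, which was not called, 49.5%. The part of shared reads in the differences was not tested.

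The nuclear genes that copy, transcribe, cut and decay mitochondrial RNA were taken from 4 lists with 93 tested genes. Of these, 5 were called higher and 16 lower, beside 13.3% and 11.9% of all tested genes, and the median log2 fold change was -0.08. In the list for mtDNA copying and upkeep, 2 of 21 were higher and 6 lower, 38.1% called beside 25.2% of all tested genes. POLG2, the accessory subunit of the mitochondrial DNA polymerase, rose from 18.6 ± 1.37 to 23.6 ± 0.994 CPM (SD, n = 3), and MPV17, an inner membrane protein needed to keep mtDNA, rose from 28.4 ± 3.31 to 33.8 ± 1.91 CPM. TK2, the mitochondrial thymidine kinase, fell by 0.37 and ATAD3B, an inner membrane ATPase, fell by 0.34 on the log2 scale. POLG2 remained called in all 13 alternatives. The call of MPV17 was lost in 7 of them, including DESeq2 and leaving out control 2, control 3, knockdown 1 or knockdown 3. The calls of TK2 and ATAD3B were each lost in 3, without control 1 or knockdown 1 for both, without knockdown 2 for TK2 and without control 3 for ATAD3B.

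Of 18 transcription genes, 0 were called higher and 2 lower by both edgeR and DESeq2, with 5 at an unadjusted p under 0.05 in edgeR. In edgeR, 11.1% of this list was called, beside 25.2% of all tested genes. TFAM, which packs mtDNA and starts its transcription, fell from 136.2 ± 4.2 to 117.7 ± 7.54 CPM (SD, n = 3), or by log2 ratio -0.21 (SE 0.0591, adjusted p = 0.0146 by edgeR's quasi-likelihood test). GABPB1, a subunit of the nuclear respiratory factor GABP, fell by 0.32 on the log2 scale. POLRMT, the mitochondrial RNA polymerase, was not called at 0.08 (SE 0.0666), nor were the initiation factor TFB2M at -0.09 (SE 0.0802) and the elongation factor TEFM at -0.17 (SE 0.123). The call of TFAM was lost without knockdown 1 or knockdown 3 and with the abundance trend removed.

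For RNA cleavage and modification, 2 of 30 were higher and 5 lower, 23.3% called beside 25.2% of all tested genes. NSUN4, a methyltransferase of the 12S rRNA and partner in ribosome assembly, rose from 25.9 ± 1.88 to 34.8 ± 1.62 CPM (SD, n = 3), or by log2 ratio 0.42 (SE 0.0779, adjusted p = 6.50e-04 by edgeR's quasi-likelihood test). METTL15, another methyltransferase of the 12S rRNA, rose by 0.29 (SE 0.0795). RCC1L, a factor of 16S rRNA and large subunit assembly, fell from 117.5 ± 4.22 to 93.4 ± 4.46 CPM, or by log2 ratio -0.33 (SE 0.0584, adjusted p = 4.50e-04 in the same test). MRM1, which methylates the 16S rRNA, fell by 0.34 (SE 0.120), but its call was lost in 6 of 13 alternatives, including DESeq2 and leaving out control 1, control 3, knockdown 1 or knockdown 2. The call of METTL15 was lost without control 3 or knockdown 1, while NSUN4 and RCC1L were called in all 13. TRMT10C, a subunit of the enzyme that cuts the 5′ ends of tRNAs, was not called at -0.08 (SE 0.0744).

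For RNA stability, tails and decay, 1 of 24 was higher and 3 lower, 16.7% called beside 25.2% of all tested genes. PTCD2, a mitochondrial RNA-binding protein, rose by 0.28. LACTB2, a mitochondrial endoribonuclease, fell by 0.44, HNRNPK, an RNA-binding protein with roles throughout the cell, by 0.20, and FASTK, whose mitochondrial form is needed for MT-ND6 mRNA, by 0.20. LACTB2 and HNRNPK were called in all 13 alternatives. The call of PTCD2 was lost without control 1, control 3 or knockdown 1, and that of FASTK without control 1, control 3, knockdown 1 or knockdown 2 and with the abundance trend removed. LRPPRC and SLIRP, which hold mitochondrial mRNAs stable, were not called at 0.04 (SE 0.0613) and -0.10 (SE 0.101). The poly(A) polymerase MTPAP was at 0.05 (SE 0.0799) and the deadenylase PDE12 at 0.03 (SE 0.0574). PNPT1 and SUPV3L1, the nuclease and helicase of the mitochondrial degradosome, were at -0.14 (SE 0.0736) and -0.04 (SE 0.0723), and GRSF1, an RNA granule protein, at -0.05 (SE 0.0556). None of these 7 was called.

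The nuclear subunits that join the mitochondrial proteins in complexes I, III, IV and V numbered 75 tested genes. By edgeR, 0 were called higher and 9 lower, with 17 at an unadjusted p under 0.05, and DESeq2 also called 0 higher. The 9 are 12% of the subunits, beside 11.9% of all tested genes called lower and 25.2% called in either direction. The 0 called higher stand beside 13.3% of all tested genes. The median log2 fold change was -0.09, as it was for the mitochondrial mRNAs. The lower genes were 6 of 37 in complex I, 1 of 9 in complex III, 1 of 11 in complex IV and 1 of 18 in complex V. In complex I, NDUFS6 fell from 34.2 ± 6.86 to 26.3 ± 4.11 CPM (SD, n = 3) and NDUFB1 from 15.2 ± 2.59 to 11.9 ± 0.673 CPM. UQCR10 of complex III fell by 0.31, COX6B1 of complex IV by 0.18 and ATP5MC3 of complex V by 0.19 on the log2 scale. The count of lower subunits was 2 without control 3, 5 without control 1 or without knockdown 1, and 20 without control 2, so it hung on single libraries. Each of these 5 named subunits lost its call without control 3, NDUFS6, COX6B1 and ATP5MC3 also without control 1, NDUFS6 and COX6B1 also without knockdown 1 or 2, and NDUFB1 also without knockdown 2 or 3. NDUFS6 was also lost with DESeq2, and COX6B1 and ATP5MC3 with the abundance trend removed.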

How the data were processed

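RNA-seq was analysed from 3 control and 3 CNOT7 knockdown libraries. Total RNA was extracted with TRIzol and libraries were prepared with a NEBNext Ultra RNA kit, per the labels. The authors deposited unnormalized counts for each gene. The submitters' processing notes name CASAVA 1.8, fastp, HISAT2 2.0.5, featureCounts 1.5.0-p3 and DESeq2 1.20.0, with no settings. The strand setting of the counting and the handling of multi-mapped or shared reads are thus not given in the sources used here. Sample columns left unused numbered 0. All 37 members, and 58724 of 58735 genes, had the positions of GENCODE release 29 on GRCh38.

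Counts were fitted over the whole table in R 4.3.3 with edgeR 4.0.16 (filterByExpr, TMM, glmQLFit and glmQLFTest, no covariates, Benjamini-Hochberg adjustment, threshold 0.05). Depth was 23788451 to 29104872 counts per library, and the median standard error of a log2 fold change was 0.0977. Each standard error (SE) was derived from the edgeR test, as the absolute log2 fold change over the square root of its F statistic. Fold changes are knockdown over control. Shares and ratios are sums of counts with no test. Libraries of a group differed by more than sampling noise, so none was a copy.

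The members and lists were chosen with earlier results of these data known. Named were all tested members, CNOT7, 13 fixed nuclear genes of mitochondrial RNA metabolism, in each nuclear list up to 2 called genes with the largest rise and 2 with the largest fall, and the 5 nuclear copies with the highest mean CPM. Alternatives were DESeq2 1.42.0, RLE factors, no filter, a minimum of 10 counts in each library, a replicate block, library sizes without mitochondrial genes, removal of an abundance trend by cyclic loess (limma 3.58.1) and each library left out. Sequences came from GENCODE transcripts. In counts simulated for this comparison on 17265 genes, edgeR recovered 54 of 100 genes planted at an absolute log2 fold change of 0.5 and 79 of 100 planted at 1, with 9 false calls. Only 200 genes were planted, whereas 25.2% of all tested genes were called in the data, so these rates need not hold for the data. Tables and plots used Python 3.11.15, pandas 2.3.3, numpy 2.4.6 and matplotlib 3.10.9.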

Additional observations from a re-analysis of the deposited data

How the results depend on the processing

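Of 374 values of members under 13 alternatives, 326 kept their direction and their side of the threshold, 14 lost a call, 15 gained one and 19 changed sign, none of the latter called in either fit. The replicate numbers were not taken to pair libraries, since the labels do not state a pairing. The deviations of same-numbered libraries correlated at 0.0228, 0.153 and -0.0153, and those of other-numbered libraries at -0.151 to 0.132. These values do not settle whether libraries were paired. With the replicate number as a block, 11 members, 3306 of all genes, 30 nuclear genes of mitochondrial gene expression, 25 nuclear subunits and 2 nuclear copies were lower, and 11 genes of mitochondrial gene expression higher. The cause was not tested for any of these moves. With no filter, 14 nuclear subunits and 2 copies were lower. DESeq2 called 0 copies lower, and a minimum of 10 counts in every library left 0 copies called in either direction. The mitochondrial share differed by 0.296 percentage points, by -0.144 among protein-coding counts and by -0.148 without the rRNAs. The minus-strand to plus-strand mRNA ratio was 1.04 times the control by count and 1.14 per kilobase. With single libraries left out, 1367 (without control 3) to 2219 genes, 3 (without control 1 or knockdown 3) to 8 members, 9 (without knockdown 1) to 18 genes of mitochondrial gene expression, 2 (without control 3) to 20 (without control 2) subunits and 0 to 1 copies were lower. Higher were 2 to 6 genes of mitochondrial gene expression and 2 to 3 copies. The share difference ran from 0.0657 to 0.497 points and the strand ratio from 1.01 to 1.08.

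Some uncalled log2 fold changes changed sign. Removing the abundance trend gave 0.0744 for MT-ND2, 0.0426 for MT-CO1, 0.0257 for MT-CO2, -0.0319 for MT-TG, 0.0145 for MT-ND4, 0.0030 for MT-ND6, 0.00873 for GRSF1 and -0.0690 for MTND4P12. With single libraries left out, values ran from -0.0639 to 0.0398 for MT-ND2, -0.0399 to 0.198 for MT-TC, -0.0144 to 0.127 for MT-TY, -0.0662 to 0.144 for MT-TG, -0.234 to 0.156 for MT-ND3, -0.284 to 0.124 for MT-TH, -1.04 to 0.0913 for MT-TL2, -0.159 to 0.00732 for MT-ND5, -0.156 to 0.0479 for MT-ND6, -0.0322 to 0.0816 for LRPPRC, -0.241 to 0.0257 for SLIRP, -0.0236 to 0.125 for MTPAP, -0.207 to 0.165 for MTND2P28 and -0.0886 to 0.250 for MTND4P12. Low counts limit the tRNA calls, and 8 tRNA genes could not be tested.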
